A study of Mus musculus with 12 samples.

Results

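The interleukin 12 family is a small group of secreted cytokines that are built from 2 different chains. Its 5 genes, Il12a, Il12b, Il23a, Il27 and Ebi3, were taken by symbol from an RNA-seq table of 55401 mouse genes, and all 5 passed the filter on low values that left 13369 genes for testing. They were followed across 12 libraries of bone-marrow-derived macrophages (BMDMs), which are macrophages grown in culture from marrow precursors. All 4 groups shared the C57BL/6J strain, the Irx3-/- genotype, differentiation with 20 nM of M-CSF, a macrophage growth factor, over 7 days, and 4 h with 100 ng/ml of lipopolysaccharide (LPS), a component of the bacterial cell wall. The groups differed in the protein delivered by adeno-associated virus (AAV). In 3 libraries it was IRX3_S389A, in 3 IRX3_S361A, which are named as serine-to-alanine mutants, in 3 the wild-type protein IRX3_WT, and in 3 GFP, a fluorescent protein that served as the control. IRX3 belongs to the Iroquois class of homeobox transcription factors. No group had unaltered Irx3, and none was left without LPS, so every value below is a level in LPS-treated cells. The labels do not say whether the libraries of a group came from separate animals or cultures, and p-values therefore measure the spread between these libraries only.

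Each cytokine of the family pairs an alpha chain with a beta chain. The beta chain encoded by Il12b joins the Il12a product to form IL-12, which drives interferon gamma production in T cells and natural killer cells, or the Il23a product to form IL-23, which sustains T cells that make IL-17. The other beta chain, encoded by Ebi3, joins the Il27 product to form IL-27, which both promotes and restrains T cell responses, and has been paired with the Il12a product as IL-35. Macrophages and dendritic cells transcribe these genes after Toll-like receptor signals such as that of LPS, through NF-kappaB, interferon regulatory factors and AP-1 proteins.

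In the mouse genome (GRCm38, GENCODE M21) the genes lie apart from one another. Il12a is on the plus strand of chromosome 3 at 68690644 to 68698547, Il12b on the plus strand of chromosome 11 at 44400063 to 44414033, and Il23a on the minus strand of chromosome 10 at 128296139 to 128298752. Il27 is on the minus strand of chromosome 7 at 126589010 to 126594941, and Ebi3 on the plus strand of chromosome 17 at 55952640 to 55957022.

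The promoters of Il12b and Il12a are shown because their transcripts had the largest differences of the family, and that of Ebi3 because it is the beta chain with the smallest. A promoter entry in RefSeq was matched for 3 of the 5 genes, and the 250 bases before the RefSeq start are given 5′ to 3′ on the plus strand of GRCm38.p6. The RefSeq start of Ebi3 lies upstream of the GENCODE start given above, and a second RefSeq window of Il12a was searched but is not printed. They lie at chr11:44399813-44400062 for Il12b, chr3:68690394-68690643 for Il12a and chr17:55952373-55952622 for Ebi3, and the capitals mark the match to the NF-kappaB motif.
Il12b: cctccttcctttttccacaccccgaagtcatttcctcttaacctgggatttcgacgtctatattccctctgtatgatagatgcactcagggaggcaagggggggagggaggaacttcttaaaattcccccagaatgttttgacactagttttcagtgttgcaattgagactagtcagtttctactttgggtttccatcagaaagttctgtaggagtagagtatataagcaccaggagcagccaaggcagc
Il12a: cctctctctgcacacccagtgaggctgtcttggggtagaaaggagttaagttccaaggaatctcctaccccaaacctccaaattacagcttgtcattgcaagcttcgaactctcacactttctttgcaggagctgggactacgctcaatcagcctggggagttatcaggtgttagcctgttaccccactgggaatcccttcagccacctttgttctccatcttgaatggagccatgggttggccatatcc
Ebi3: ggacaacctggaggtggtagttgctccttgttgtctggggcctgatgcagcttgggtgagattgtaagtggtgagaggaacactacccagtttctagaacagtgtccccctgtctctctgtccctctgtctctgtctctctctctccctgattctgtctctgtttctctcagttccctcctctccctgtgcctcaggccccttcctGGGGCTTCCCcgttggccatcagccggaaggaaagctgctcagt
The windows were searched for NF-kappaB letters, AP-1 letters (TGANTCA), interferon-response letters (GAAA and again GAAA with 2 free bases between), C/EBP letters (TTNNGNAA) and Iroquois letters (ACANNTGT) on both strands, and for TATAAA on the given strand. The 1 place matched was the NF-kappaB motif of Ebi3, at positions -44 to -35 from the RefSeq start, where it reads as a match on both strands. Of 32851 windows of the same length in the table, 7.25% held the NF-kappaB motif, 6.75% the AP-1 letters, 2.98% the interferon-response letters, 36.8% the C/EBP letters, 6.31% the Iroquois letters and 7.59% TATAAA. These matches describe letters in a window and not bound sites, and the absence of a match says only that those letters were not in these bases.

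Depth was even across the libraries, with 17149058 to 20108002 reads recovered from the deposited normalized values, and 1 read was worth 0.890 to 1.14 normalized counts. Irx3 transcript was listed at 0 in the GFP libraries. It averaged 187 ± 20.2 normalized counts in IRX3_S389A, 349 ± 21.5 in IRX3_S361A and 177 ± 16.3 in IRX3_WT libraries (SD, n = 3 each), so IRX3_S361A cells held more Irx3 transcript than IRX3_WT cells (log2 difference 0.97, limma adjusted p = 0.000197), and the part of this in the differences between those groups was not tested. The 9 macrophage markers examined were all expressed in every group, and their summed level ran from 361388 to 430712 normalized counts across the libraries. Among 8 dendritic cell markers, Flt3, Clec9a and Cd209a were at or near 0, and the summed level was 148 to 187 in IRX3_S389A, 140.1 to 161 in IRX3_S361A, 161 to 172 in IRX3_WT and 119 to 152 in GFP libraries. Of these 8 markers 3 were tested, and 1, Ccr7, was called higher in IRX3_WT than in GFP libraries. The test of Ccr7 over the 4 groups did not pass (limma adjusted p = 0.0959). In all GFP libraries 7 of the 8 markers stayed below 10 normalized counts, and in all IRX3_WT libraries 6 did. Summed levels stayed at or below 64.4 for 8 neutrophil markers, with Ly6g at 0, and 37.1 for 8 lymphocyte markers. Of the neutrophil markers 2 were tested, and S100a8 was higher than in GFP libraries with IRX3_S389A by 0.78 (limma adjusted p = 0.0474) and with IRX3_WT by 1.12 (adjusted p = 0.00356) on the log2 scale. The call of S100a8 for IRX3_S389A was lost with libraries scaled to equal totals, edgeR, DESeq2 and a replicate block. The 7 stromal markers summed to 201 to 215 in IRX3_S389A, 129.7 to 199 in IRX3_S361A, 242 to 256 in IRX3_WT and 87.5 to 121 in GFP libraries. Most of that sum was Pdgfrb, which was 1.41 higher on the log2 scale in IRX3_WT than in GFP libraries. Of the 7, 6 stayed below 10 normalized counts in all IRX3_WT libraries, and 1 did in all IRX3_S361A libraries. With IRX3_S389A and with GFP that number was 4. Of the 3 stromal markers tested, 1 was called lower and none higher with each mutant than with IRX3_WT. Their median log2 difference was nevertheless positive in both of those comparisons. The part of these markers in the results below was not tested, and in bulk RNA a change in the number of cells that express a gene and a change in RNA per cell cannot be told apart.

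Over the 4 groups together, 4 of the 5 family genes passed the test for any difference, against 44.2% of all genes. Against GFP, 4 of the 5 family genes were higher with IRX3_WT: Il12a, Il12b, Il27 and Ebi3 (limma with Benjamini-Hochberg adjustment over all genes tested, threshold 0.05). The background in that comparison was 21% of all genes called higher and 18.6% called lower. The same 4 genes were higher with IRX3_S361A than with GFP, where 14.9% of all genes were called higher and 10.9% lower. With IRX3_S389A, Il12a, Il12b and Il27 were higher than with GFP, against 18.8% of all genes called higher and 16.2% lower. Against IRX3_WT, 4 genes were lower with IRX3_S361A and 4 with IRX3_S389A, again all but Il23a, and none was higher. The background was 9.07% of all genes called lower and 6.43% higher for IRX3_S361A, and 7.08% lower and 8.21% higher for IRX3_S389A. Between the 2 mutants, Il27 was higher with IRX3_S389A than with IRX3_S361A and no member was called lower, against 7% of all genes called higher and 3.16% called lower. The median log2 difference of the 5 genes from GFP was 1.24 with IRX3_WT, 0.59 with IRX3_S361A and 0.63 with IRX3_S389A. The median of all genes tested was at most 0.0074 from 0 in every comparison, where the scaling of the deposited values holds it. Libraries of the 2 groups did not overlap for 4 of the 5 members in IRX3_WT against GFP (48.4% of all genes), 4 in IRX3_S361A against GFP (39.6%) and 3 in IRX3_S389A against GFP (46.4%). The same held for 4 members in IRX3_S361A against IRX3_WT (29.3% of all genes), all 5 in IRX3_S389A against IRX3_WT (29.1%) and 1 in IRX3_S389A against IRX3_S361A (25.9%). These comparisons share libraries, so their results are not independent of one another.

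**Figure D1:**
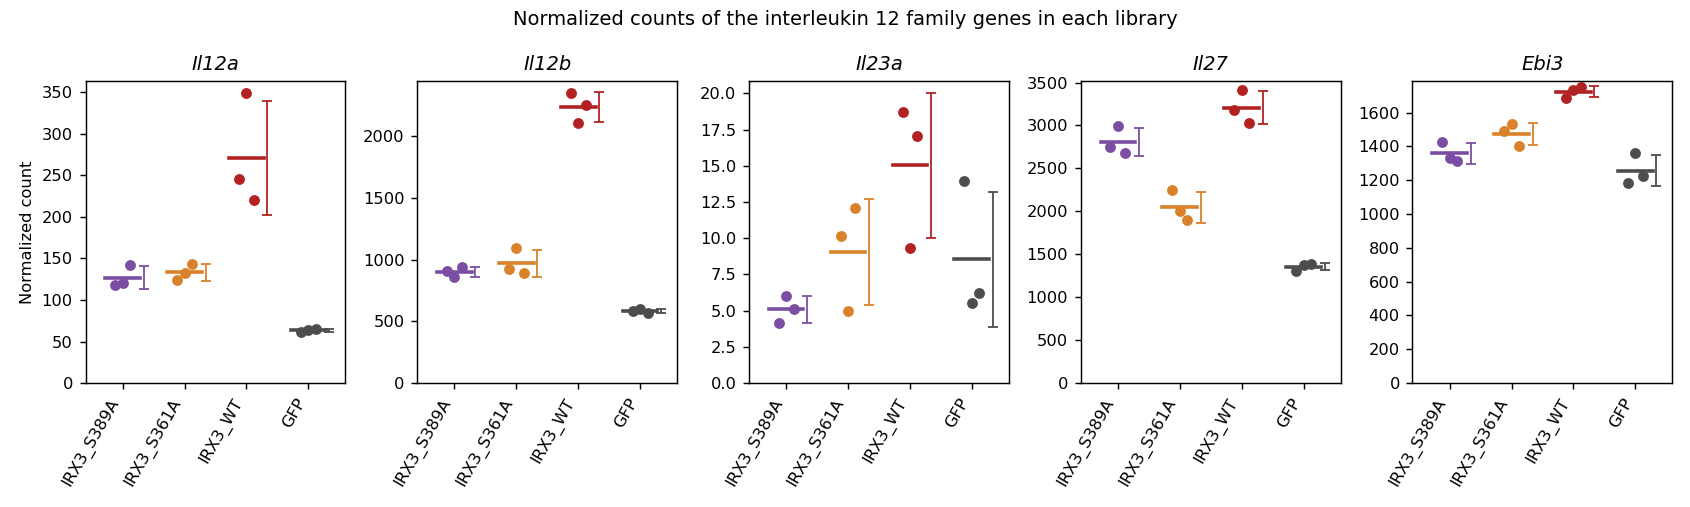
Normalized count of each family gene in each library, by construct. Points are libraries, thick bars group means and whiskers 1 SD (n = 3). IRX3_WT libraries are above all others for Il12a, Il12b and Ebi3, and the Il27 groups are separated at all 4 levels.

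The scale of the libraries mattered to small differences. The deposited totals were 19510275 to 19639425 in IRX3_S389A, 18743369 to 18889490 in IRX3_S361A, 19513613 to 19796325 in IRX3_WT and 17325311 to 17469765 normalized counts in GFP libraries. When the libraries were scaled to equal totals, the median of all genes moved to -0.17 for IRX3_S389A, -0.11 for IRX3_S361A and -0.18 for IRX3_WT, each against GFP. The calls for IRX3_WT against GFP then split into 1395 higher and 5519 lower, in place of 2805 and 2483. For IRX3_S361A against GFP the split was 1047 and 3226 in place of 1996 and 1461, and for IRX3_S389A against GFP 1334 and 5397 in place of 2516 and 2160. Against IRX3_WT, IRX3_S361A had 1805 higher and 754 lower in place of 859 and 1212, and IRX3_S389A against IRX3_S361A had 597 and 1053 in place of 936 and 423. Il12a, Il12b and Il27 kept the direction and the call of every difference described here under that scaling, and the exceptions for Ebi3 and Il23a are given with those genes.

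Il12b encodes the beta chain shared by IL-12 and IL-23. It was read at 905, 859 and 937 normalized counts in the 3 IRX3_S389A libraries, at 925, 1094 and 893 in the IRX3_S361A libraries, at 2348, 2105 and 2247 in the IRX3_WT libraries and at 581, 599 and 565 in the GFP libraries. The IRX3_WT libraries were the highest and the GFP libraries the lowest, with no overlap between either group and any other, while the mutants overlapped each other. With IRX3_WT, Il12b was 3.83-fold higher than with GFP (log2 difference 1.94 ± 0.063 SE, limma adjusted p = 4.31e-24), the rank of 12 from the top of the 13369 genes. IRX3_S361A gave a rise of 0.73 ± 0.063 SE over GFP (adjusted p = 1.26e-11) and IRX3_S389A one of 0.63 ± 0.063 SE (adjusted p = 2.22e-10), so both mutants stood above the control as well. Relative to IRX3_WT, Il12b fell by 1.21 on the log2 scale in IRX3_S361A cells (adjusted p = 1.33e-16) and by 1.31 in IRX3_S389A cells (adjusted p = 2.67e-17). The difference of IRX3_S389A from IRX3_WT had rank 25 from the bottom of all genes. The mean level was 40.3% of that of IRX3_WT with IRX3_S389A, 43.5% with IRX3_S361A and 26.0% with GFP. Between the mutants the difference, IRX3_S389A minus IRX3_S361A, was -0.10 with a 95% interval from -0.23 to 0.025 (adjusted p = 0.360).

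Il12a encodes the alpha chain that is specific to IL-12 and IL-35. The 3 IRX3_S389A libraries had 118, 121 and 142 normalized counts, the IRX3_S361A libraries 123, 132 and 144, the IRX3_WT libraries 245, 349 and 219.6, and the GFP libraries 61.3, 63.5 and 65.0. The order of the groups was that of Il12b, and the mutants again overlapped each other but neither IRX3_WT nor GFP. Replicate 2 of IRX3_WT stood above the other IRX3_WT libraries, which gave that group a wider spread (271 ± 68.5, SD, n = 3) than GFP (63.3 ± 1.89). With IRX3_WT, Il12a was 4.15-fold higher than with GFP (log2 difference 2.05 ± 0.15 SE, limma adjusted p = 1.14e-14), rank 10 from the top. Without replicate 2 of IRX3_WT the difference was 1.86. Over GFP, Il12a rose by 1.06 ± 0.15 SE in IRX3_S361A cells (adjusted p = 2.85e-07) and by 0.99 ± 0.15 SE in IRX3_S389A cells (adjusted p = 6.44e-07). Compared with IRX3_WT, it fell by 0.99 in IRX3_S361A cells (adjusted p = 2.56e-06) and by 1.07 in IRX3_S389A cells (adjusted p = 1.004e-06). The difference between IRX3_S389A and IRX3_S361A was -0.071, with an interval from -0.36 to 0.22 (adjusted p = 0.841).

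Il23a encodes the alpha chain of IL-23 and was close to the limit of detection. IRX3_S389A libraries had 4.13, 6.04 and 5.08 normalized counts, IRX3_S361A libraries 10.1, 4.97 and 12.1, IRX3_WT libraries 18.7, 9.35 and 17.1, and GFP libraries 13.9, 5.53 and 6.23. These values rest on 4 to 19 reads a library, against a counting floor of 3 reads that is worth 2.67 to 3.41 normalized counts. IRX3_S389A and IRX3_WT were the 1 pair of groups whose libraries did not overlap. No difference of Il23a passed the test, and the test over all 4 groups gave an adjusted p of 0.121. The difference between IRX3_S389A and IRX3_WT was -1.36 with a 95% interval from -2.34 to -0.37 (limma adjusted p = 0.0531), and it crossed the threshold under some alternatives, at adjusted p = 0.0388 with edgeR on the recovered reads and 0.0342 without replicate 2 of IRX3_WT. The estimate for IRX3_S361A against GFP was 0.10, with an interval from -0.88 to 1.08, and it changed sign with scaling to equal totals. The standard error of a difference was 0.49 on the log2 scale for Il23a, against 0.063 for Il12b.

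Il27 encodes the alpha chain of IL-27 and ordered the constructs differently. In the IRX3_S389A libraries it had 2751, 2997 and 2675 normalized counts, in the IRX3_S361A libraries 2245, 2007 and 1894, in the IRX3_WT libraries 3179.9, 3412 and 3030.2, and in the GFP libraries 1306, 1372 and 1382. No group overlapped another: IRX3_WT was highest, IRX3_S389A next, IRX3_S361A below it and GFP lowest. With IRX3_WT, Il27 was 2.37-fold higher than with GFP (log2 difference 1.24 ± 0.055 SE, limma adjusted p = 1.07e-18). It was 2.07-fold higher with IRX3_S389A than with GFP (adjusted p = 1.47e-16) and 1.51-fold higher with IRX3_S361A (adjusted p = 2.56e-10). The direct comparison of the mutants gave 0.46 ± 0.055 SE more with IRX3_S389A than with IRX3_S361A (adjusted p = 4.63e-07). Relative to IRX3_WT, Il27 fell by 0.65 in IRX3_S361A cells (adjusted p = 1.57e-10), to 63.9% of the IRX3_WT mean. The fall with IRX3_S389A was small, at 0.19 on the log2 scale or 87.5% of the IRX3_WT mean (adjusted p = 0.0146), and its call was lost when single libraries were left out. It was -0.15 without replicate 2 of IRX3_WT (adjusted p = 0.0951), -0.18 without replicate 1 of IRX3_S389A (adjusted p = 0.0708) and -0.16 without replicate 3 of IRX3_S389A (adjusted p = 0.0779). In the annotation, 10.1% of the exon bases of Il27 overlap Apobr on the opposite strand, and the strand setting of the counting is not given. Apobr averaged 3181 ± 37.2 normalized counts in IRX3_S389A, 3277 ± 73.1 in IRX3_S361A, 3192 ± 97.2 in IRX3_WT and 2869 ± 62.3 in GFP libraries (SD, n = 3 each). Like Il27 it was lowest with GFP, but its highest mean was with IRX3_S361A. Its test over the 4 groups passed (limma adjusted p = 0.00075). The part of Apobr reads in the values of Il27 was not tested.

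Ebi3, the beta chain of IL-27 and IL-35, changed least among the called members wherever it was called, with 1 exception. With IRX3_S389A against IRX3_WT, Il27 fell by 0.19 and Ebi3 by 0.34. The values of Ebi3 were 1428, 1331 and 1316 normalized counts with IRX3_S389A, 1491, 1529.6 and 1399 with IRX3_S361A, 1687, 1734 and 1750.1 with IRX3_WT, and 1180.5, 1359 and 1227 with GFP. The IRX3_WT libraries lay above all others, and GFP overlapped IRX3_S389A but not IRX3_S361A. With IRX3_WT, Ebi3 was 1.37-fold higher than with GFP (log2 difference 0.46 ± 0.054 SE, limma adjusted p = 4.97e-09). It was 0.23 higher with IRX3_S361A than with GFP (adjusted p = 0.000967), a call that was lost with libraries scaled to equal totals, where the difference was 0.12 (adjusted p = 0.0886). The difference of IRX3_S389A against GFP was 0.11 (adjusted p = 0.0982), and it was -0.055 with equal totals and 0.17 without replicate 2 of GFP (adjusted p = 0.0191). Relative to IRX3_WT, Ebi3 fell by 0.34 in IRX3_S389A cells (adjusted p = 1.07e-05) and by 0.23 in IRX3_S361A cells (adjusted p = 0.00237). The mutants differed by -0.12, IRX3_S389A minus IRX3_S361A, with an interval from -0.23 to -0.0081 and an adjusted p of 0.186 over all genes. With equal totals that difference was -0.17 and passed the test (adjusted p = 0.0290). An unnamed gene model on the opposite strand, Gm16712, covers 23.4% of the exon bases of Ebi3. Gm16712 averaged 225 ± 29.0 normalized counts in IRX3_S389A, 223 ± 40.4 in IRX3_S361A, 245 ± 4.57 in IRX3_WT and 221 ± 11.8 in GFP libraries (SD, n = 3 each), and none of its differences passed the test.

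**Figure D2:**
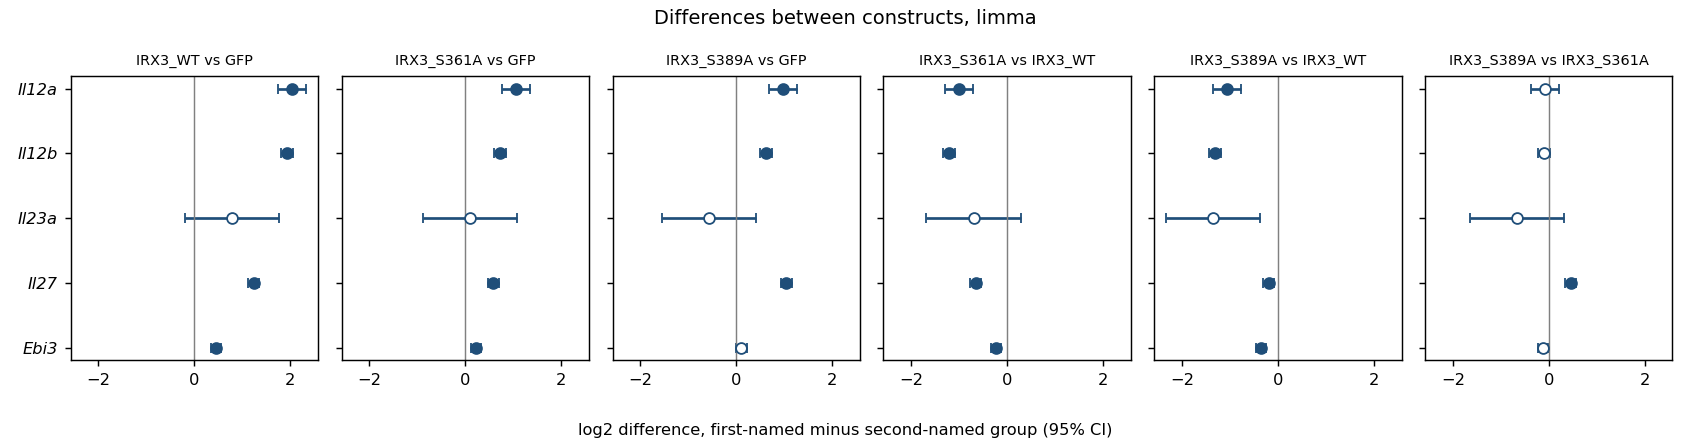
Log2 differences of the 5 family genes in each of the 6 comparisons, with 95% confidence intervals from limma. Filled points passed the adjusted threshold of 0.05 and hollow points did not. In the comparison of IRX3_S389A with IRX3_S361A, Il27 alone is filled, at 0.46.

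Levels per kb of exon allow the chains to be set side by side. Il27 was the most abundant member in every group, with 2750.0 ± 165 normalized counts per kb in IRX3_S389A, 2006 ± 176 in IRX3_S361A, 3141 ± 189 in IRX3_WT and 1325 ± 40.6 in GFP libraries (SD, n = 3 each). Its partner chain Ebi3 had 1177 ± 52.6 normalized counts per kb in IRX3_S389A, 1277 ± 58.0 in IRX3_S361A, 1494 ± 28.2 in IRX3_WT and 1088 ± 80.3 in GFP libraries. Il12b had 458 ± 20.0 in IRX3_S389A, 493 ± 55.0 in IRX3_S361A, 1135 ± 62.1 in IRX3_WT and 296 ± 8.88 in GFP libraries. Il12a, the chain it needs to form IL-12, was less abundant than Il12b in every group, at 92.7 ± 9.76 normalized counts per kb in IRX3_S389A, 97.2 ± 7.42 in IRX3_S361A, 198 ± 49.98 in IRX3_WT and 46.2 ± 1.38 in GFP libraries. Il23a was the rarest, at 3.74 ± 0.701 per kb in IRX3_S389A, 6.66 ± 2.70 in IRX3_S361A, 11.1 ± 3.68 in IRX3_WT and 6.29 ± 3.42 in GFP libraries. The lengths used were the exon bases of the protein-coding transcripts, 1021 for Il27, 1154 for Ebi3, 1967 for Il12b, 1370 for Il12a and 1360 for Il23a, so the spacing between genes carries the error of the annotation.

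**Figure D3:**
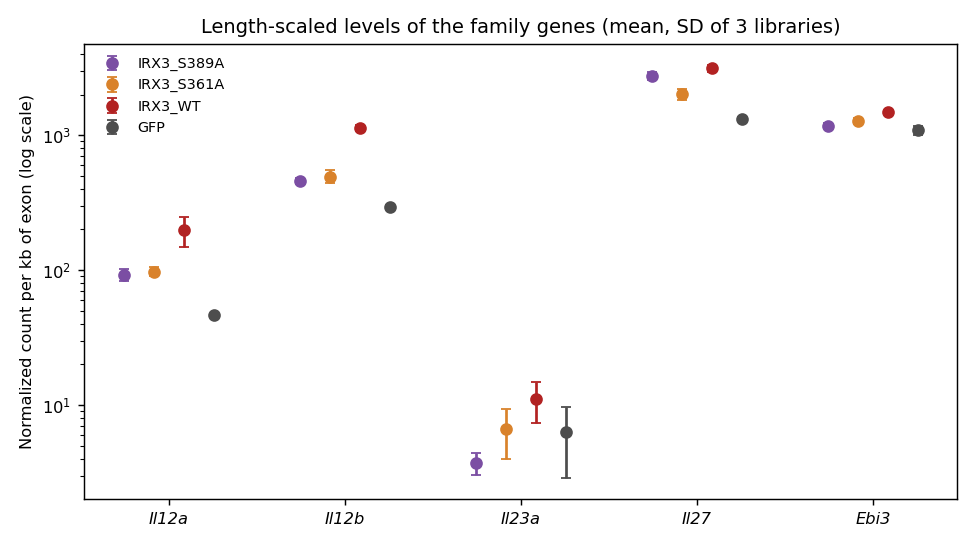
Mean normalized count per kb of exon for each family gene, on a log axis, with 1 SD over 3 libraries. Il27 and Ebi3 are above 1000 per kb in every group, and Il23a is below 20 in every group.

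Ratios of partner chains within a library do not depend on how the libraries were scaled. Between Il12a and Il12b the ratio per kb averaged 0.202 ± 0.0156 in IRX3_S389A, 0.199 ± 0.0295 in IRX3_S361A, 0.176 ± 0.0538 in IRX3_WT and 0.156 ± 0.00783 in GFP libraries (SD, n = 3 each). The groups were not told apart by an exact permutation test over the 4 groups (two-sided by construction, 369600 divisions of the 12 libraries, p = 0.288, adjusted over 4 ratios 0.288). Both chains of IL-12 differed between constructs while no difference in their ratio was detected. Replicate 2 of IRX3_WT decided that result: its ratio of 0.238 was above those of replicates 1 and 3, 0.150 and 0.140, and without it the adjusted p of the exact permutation test was 0.0254.

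The chains of IL-27 did not keep 1 ratio. Il27 over Ebi3 per kb was 2.18, 2.55 and 2.30 in the IRX3_S389A libraries, 1.70, 1.48 and 1.53 in the IRX3_S361A libraries, 2.13, 2.22 and 1.96 in the IRX3_WT libraries and 1.25, 1.14 and 1.27 in the GFP libraries. The GFP libraries were lowest, the IRX3_S361A libraries next, and the IRX3_S389A and IRX3_WT libraries overlapped above them. The exact permutation test over the 4 groups gave p = 0.00013, or 0.000519 adjusted over 4 ratios. With 3 libraries a group, an exact test of a single pair of groups cannot go below p = 0.1, so none is given.

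Il27 and Il12b moved differently across the constructs, as the ratio of these chains shows; it was added after the values had been seen. Il27 over Il12b per kb averaged 6.03 ± 0.631 in IRX3_S389A, 4.10 ± 0.571 in IRX3_S361A, 2.78 ± 0.300 in IRX3_WT and 4.49 ± 0.204 in GFP libraries (SD, n = 3 each). It was highest with IRX3_S389A and lowest with IRX3_WT, and both of these groups stood apart from the others, while IRX3_S361A overlapped GFP. The exact permutation test gave p = 0.00026, or 0.000649 adjusted over 5 ratios. That adjustment does not cover the choice of this ratio from the same libraries. The remaining ratios, Il23a over Il12b and Il12a over Il23a, rest on the few reads of Il23a and gave adjusted p-values of 0.134 and 0.124 in the exact permutation test.

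**Figure D4:**
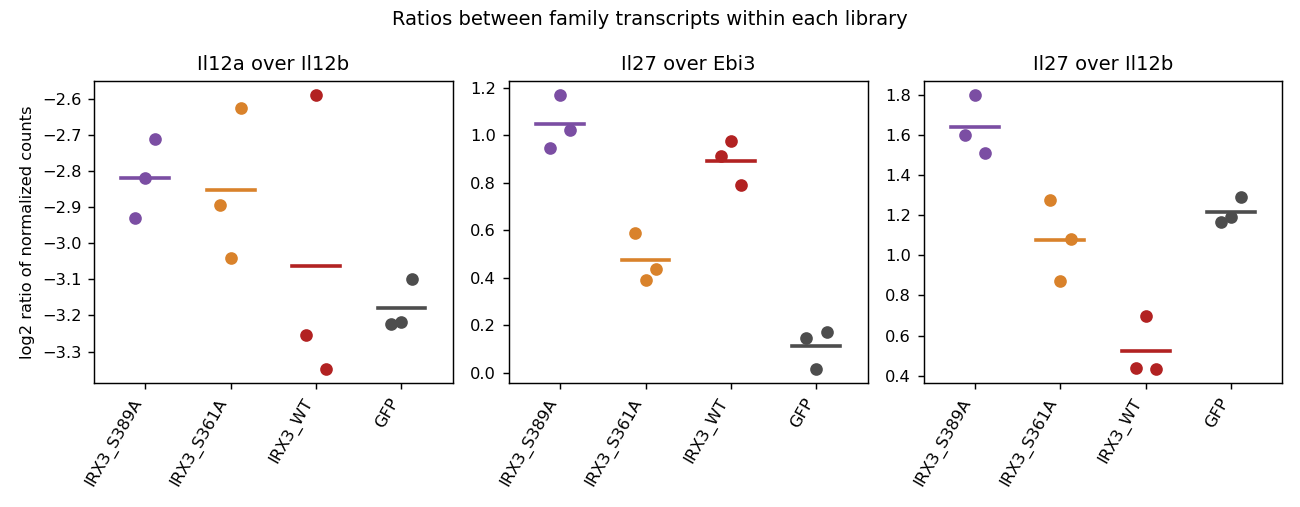
Log2 ratio of normalized counts between family transcripts in each library; points are libraries and lines group means. Il12a over Il12b overlaps between IRX3_WT and each other group, while both mutants lie above GFP; Il27 over Ebi3 is lowest with GFP, and Il27 over Il12b is highest with IRX3_S389A and lowest with IRX3_WT.

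Across the 12 libraries the members were correlated to different degrees. Pearson's r of the log2 values was 0.943 between Il12a and Il12b, 0.936 between Il12b and Ebi3, 0.878 between Il12a and Il27, 0.816 between Il12b and Il27 and 0.723 between Il27 and Ebi3. Il23a had r of 0.146 to 0.519 with the others. These are descriptions over 12 libraries that share their groups and scaling. Among 8750 genes considered, the one most like Il12a was Shisa3 (r = 0.984), and those most like Il12b were Fscn1, which encodes the actin-bundling protein fascin (r = 0.981), Phlda1 (r = 0.981) and Shisa3 (r = 0.979). Fscn1 had 891 ± 17.4 normalized counts in IRX3_S389A, 879 ± 100.0 in IRX3_S361A, 1823 ± 102 in IRX3_WT and 528 ± 29.5 in GFP libraries, so it too was highest with IRX3_WT and lowest with GFP. For Il27 the nearest were Ccl5, a chemokine (r = 0.992), Srxn1 (r = 0.992), Clic4 (r = 0.991), Cd40, the costimulatory receptor (r = 0.990), and Ccrl2 (r = 0.989). Ccl5 averaged 16996 ± 358 in IRX3_S389A, 12918 ± 662 in IRX3_S361A, 20637 ± 1240.3 in IRX3_WT and 8636 ± 393 in GFP libraries, the same order of groups as Il27. The gene most like Ebi3 was Marco, a scavenger receptor (r = 0.956), and for Il23a no gene exceeded 0.864, the value of Pou2f1.

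The receptors of these cytokines were expressed at low or moderate levels. Of 5 receptor chains, 1 was higher and 2 were lower with IRX3_WT than with GFP, where 21% of all genes were higher and 18.6% lower. With IRX3_S389A 2 were higher and 1 lower than with GFP (18.8% and 16.2% of all genes), and with IRX3_S361A 1 was lower (10.9% of all genes). Il12rb2, the signalling chain of the IL-12 receptor, was 0.54 lower on the log2 scale with IRX3_WT than with GFP (limma adjusted p = 0.000114). It was higher in both mutants than in IRX3_WT, by 0.65 with IRX3_S361A and 0.54 with IRX3_S389A. It averaged 262 ± 9.90 normalized counts in IRX3_S389A, 283 ± 27.7 in IRX3_S361A, 180.3 ± 20.8 in IRX3_WT and 263 ± 36.2 in GFP libraries (SD, n = 3 each), but 40.04% of its exon bases overlap Serbp1 on the other strand. Il6st, the gp130 chain used by IL-27 and IL-6, was lower than in GFP libraries by 0.36 with IRX3_S389A, 0.34 with IRX3_S361A and 0.42 with IRX3_WT. Il23r, the IL-23 receptor chain, was higher with IRX3_WT by 1.34 (adjusted p = 0.000984) at a mean of 29.0 ± 8.26 against 10.7 ± 1.59 normalized counts in GFP libraries. Il27ra, the IL-27 receptor chain, was 0.50 higher with IRX3_S389A than with GFP (adjusted p = 0.0460). That call was lost with equal totals (adjusted p = 0.158), edgeR (0.0507), DESeq2 (0.0711) and the replicate block (0.0540). Its difference for IRX3_WT against GFP was 0.44 (adjusted p = 0.0740). Lymphocyte cytokines that the family induces were not seen: of Ifng, Il17a, Il17f, Il22 and Il21, 4 were at 0 in every library and Il17f did not pass 3 reads.

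Most kinases and transcription factors that carry the receptors' signals were higher with each IRX3 construct than with GFP. Of 5 JAK and STAT genes, 4 were higher with IRX3_S389A, 4 with IRX3_S361A and 5 with IRX3_WT, and none was lower. The shares of all genes called higher were 18.8% with IRX3_S389A, 14.9% with IRX3_S361A and 21% with IRX3_WT. The median log2 difference from GFP was 0.45 with IRX3_S389A, 0.39 with IRX3_S361A and 0.56 with IRX3_WT. With equal totals 3 were higher with IRX3_S389A (9.98% of all genes), 3 with IRX3_S361A (7.83%) and 4 with IRX3_WT (10.4%). Jak2, the kinase of the shared IL-12 and IL-23 receptor complexes, showed the clearest order of groups. It averaged 10082 ± 123 normalized counts in IRX3_S389A, 8576 ± 229 in IRX3_S361A, 12334 ± 406 in IRX3_WT and 6419 ± 159.6 in GFP libraries (SD, n = 3 each). The log2 difference of Jak2 for IRX3_WT against GFP was 0.94 (limma adjusted p = 7.89e-23), and it fell by 0.52 with IRX3_S361A and by 0.29 with IRX3_S389A, each against IRX3_WT. Stat3, a target of IL-23 and IL-27 receptors, was 0.56 higher with IRX3_WT than with GFP and 0.17 lower with IRX3_S361A than with IRX3_WT.

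Among 12 factors known to activate family genes, 9 were higher with IRX3_S389A, 9 with IRX3_S361A and 8 with IRX3_WT than with GFP, and none was lower. Among all genes 18.8% were higher with IRX3_S389A, 14.9% with IRX3_S361A and 21% with IRX3_WT. With equal totals 6 were higher and 1 lower with IRX3_S389A, 8 higher and 2 lower with IRX3_S361A, and 7 higher and 3 lower with IRX3_WT. All genes then split into 9.98% higher and 40.4% lower with IRX3_S389A, 7.83% and 24.1% with IRX3_S361A, and 10.4% and 41.3% with IRX3_WT. Rel, the NF-kappaB subunit c-Rel that acts on Il12b in macrophages, was 0.61 higher with IRX3_WT than with GFP (limma adjusted p = 7.72e-16) and fell by 0.31 with IRX3_S361A relative to IRX3_WT, but its difference for IRX3_S389A against IRX3_WT was -0.080 (adjusted p = 0.181). Nfkb1, which encodes the p50 precursor, fell by 0.19 with IRX3_S361A and by 0.15 with IRX3_S389A against IRX3_WT. Nfkbiz, the nuclear inhibitor family protein needed for a set of secondary LPS genes, was 0.61 higher with IRX3_WT than with GFP, and 0.15 lower with IRX3_S361A than with IRX3_WT. Irf1, an activator of Il12a and Il27 in mice, ran differently: it averaged 6143 ± 52.3 normalized counts in IRX3_S389A, 4933 ± 296 in IRX3_S361A, 5122 ± 396 in IRX3_WT and 3411 ± 83.7 in GFP libraries. It was 0.27 higher with IRX3_S389A than with IRX3_WT (adjusted p = 5.72e-05) and 0.32 higher than with IRX3_S361A. Against IRX3_WT, 5 of the 12 activators were lower and none higher with IRX3_S361A, while 3 were lower and 2 higher with IRX3_S389A. The shares of all genes were 9.07% lower and 6.43% higher with IRX3_S361A, and 7.08% lower and 8.21% higher with IRX3_S389A. With equal totals 4 activators were lower and 1 higher with IRX3_S361A than with IRX3_WT, against 5.64% of all genes lower and 13.5% higher.

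Most genes that restrain the family or its signals were higher too. Of 9, all 9 were higher with IRX3_S389A, all 9 with IRX3_S361A and 8 with IRX3_WT than with GFP, where 18.8% of all genes were higher with IRX3_S389A, 14.9% with IRX3_S361A and 21% with IRX3_WT. The median log2 difference from GFP was 0.62 with IRX3_S389A, 0.60 with IRX3_S361A and 0.74 with IRX3_WT. With equal totals 8 were higher with IRX3_S389A, 8 with IRX3_S361A and 7 with IRX3_WT, and in that last comparison 1 was lower. Of all genes, 9.98% were then higher with IRX3_S389A, 7.83% with IRX3_S361A and 10.4% with IRX3_WT, and 41.3% were lower with IRX3_WT. Zc3h12a, the endoribonuclease Regnase-1 that cleaves Il12b transcript, was 0.75 higher with IRX3_WT than with GFP (limma adjusted p = 5.15e-17) and was lower than in IRX3_WT cells by 0.23 with IRX3_S361A and by 0.26 with IRX3_S389A. Zfp36, the protein tristetraprolin that binds AU-rich transcripts, and Socs1, an inhibitor of JAK kinases, were higher with IRX3_S389A than with IRX3_WT, Zfp36 by 0.23 (adjusted p = 3.21e-05) and Socs1 by 0.18 (adjusted p = 0.0243). Socs3, which inhibits gp130 signalling, was 0.90 higher with IRX3_WT than with GFP and 0.14 lower with IRX3_S389A than with IRX3_WT. Against IRX3_WT, 1 of the 9 was higher and 1 lower with IRX3_S361A, and 4 were higher and 3 lower with IRX3_S389A. For IRX3_S361A these counts are near the shares of all genes, 6.43% higher and 9.07% lower, and for IRX3_S389A those shares were 8.21% higher and 7.08% lower.

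**Figure D5:**
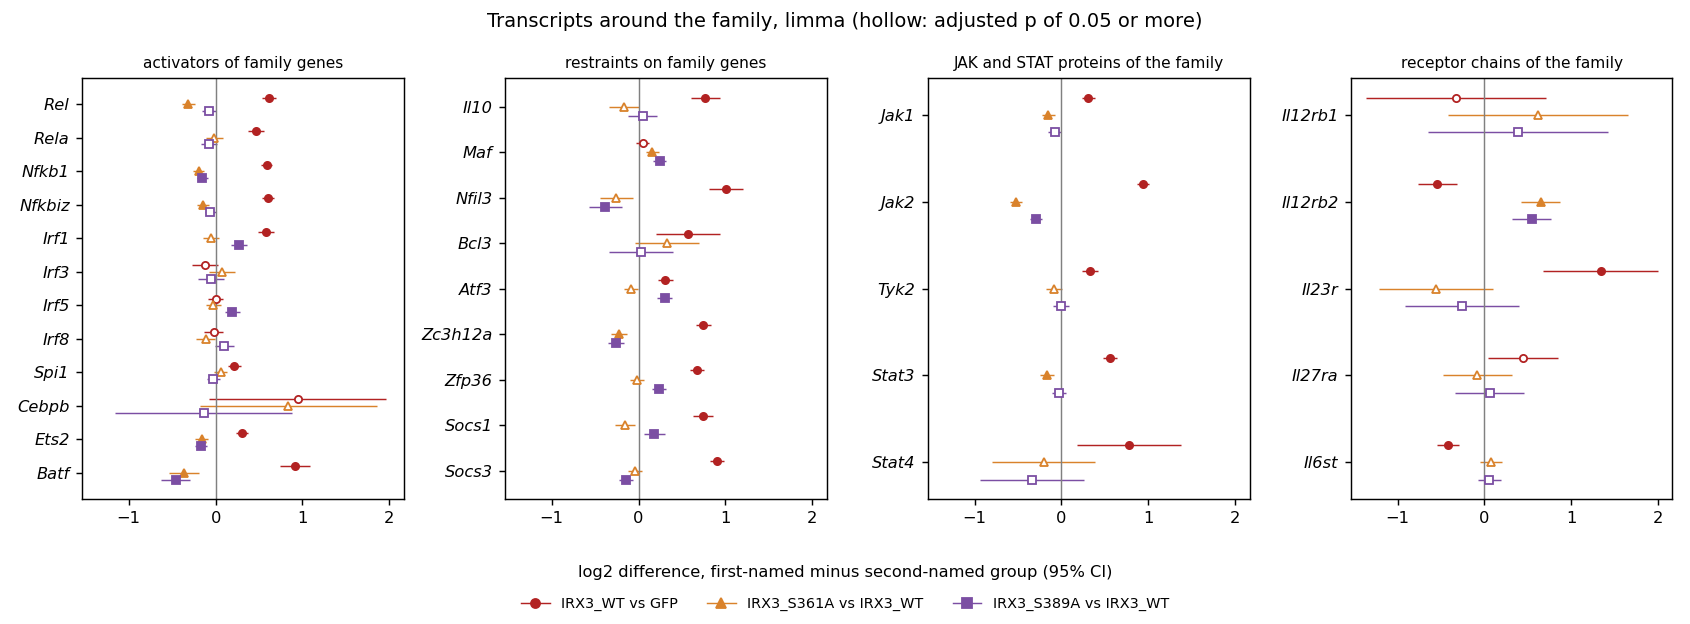
Log2 differences of activators, restraints, JAK and STAT genes and receptor chains for IRX3_WT against GFP, IRX3_S361A against IRX3_WT and IRX3_S389A against IRX3_WT, with 95% confidence intervals from limma. Hollow points did not pass the adjusted threshold. Most activators and restraints lie right of 0 for IRX3_WT against GFP, and for IRX3_S389A against IRX3_WT the restraints lie on both sides of 0, with 4 called higher and 3 lower.

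Chains of the related IL-6 group were measured for comparison. Il6 itself averaged 3849 ± 159.6 normalized counts in IRX3_S389A, 3032 ± 209 in IRX3_S361A, 6869 ± 547 in IRX3_WT and 2074 ± 222 in GFP libraries (SD, n = 3 each). It was 1.73 higher on the log2 scale with IRX3_WT than with GFP and fell by 1.18 with IRX3_S361A and by 0.83 with IRX3_S389A relative to IRX3_WT, so its order of groups was that of Il27. Il6ra, the IL-6 receptor chain related to EBI3, was 1.40 lower with IRX3_WT than with GFP. Clcf1 was 0.79 higher with IRX3_WT than with GFP.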

How the data were processed

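RNA of LPS-treated BMDMs was sequenced in 12 libraries, 3 per construct. The submitters' processing notes name mm10 with HISAT2 2.1.0, StringTie 1.3.5 and Trimmomatic (no version). Neither the counter, its strand setting, the annotation release nor the scaling tool is given in the sources used here. The authors deposited a normalized signal per gene, although the table's name speaks of raw counts. Within every column all values (100%) were multiples of a single step (tolerance 1e-06) equal to 1 over the median-of-ratios size factor, so the deposited signal is a gene count divided by 1 factor per library. In 3 libraries the step was within 1% of 1, and whole reads are taken as recovered with certainty for the other 9. Counting intervals and the floor of 3 reads cover counting error only.

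Because the values were not whole counts, limma 3.58.1 (R 4.3.3, trend and robust) on log2(value + 1) was the test, as the design provided for that case. The pseudocount shrinks differences of weak genes. A single fit with 4 group means and 8 residual degrees of freedom took the 13369 genes that reached 10 normalized counts in 3 or more libraries, with Benjamini-Hochberg adjustment over all of them. Log2 ratios within a library were compared by an exact permutation test over the 4 groups. As alternatives, edgeR 4.0.16 with TMM tested 13461 genes on the recovered reads (common biological coefficient of variation 0.0508) and DESeq2 1.42.0 was run on the same reads; pseudocounts of 0.5 and 10, a filter at 50, no filter, equal totals, a replicate block and leaving out each library were also tried. The procedure was tested on simulated data.

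Positions, exon lengths and overlaps came from GENCODE M21 (GRCm38), in which 99.5% of gene IDs matched without version. The members and lists were chosen with earlier results of these data known. Named besides the members were Irx3, up to 4 genes of each list with the smallest p over the 4 groups, the 5 genes most correlated with each member (mean of at least 100 normalized counts) and each member's nearest coding genes; not every one is printed, and some genes of the lists are not reported here. Ccr7, Pdgfrb and the absent markers were named after their values were seen.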

Additional observations from a re-analysis of the deposited data

How the results depend on the processing

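Member differences, tests over 4 groups, ratios and counts of called genes were recomputed under other settings. With settings other than leaving out a library, 397 values were kept and 13 were not. A member difference was kept if its direction and side of the threshold held. A test over 4 groups or of a ratio was kept if its side of the threshold held. A count of called genes was kept if its total stayed near that of the main fit, whatever its split into higher and lower. With edgeR on the 9 libraries with recovered reads, an alternative chosen after seeing the data, 2253 genes were called for IRX3_S361A against GFP in place of 3457, 1377 for IRX3_S361A against IRX3_WT in place of 2071 and 433 for IRX3_S389A against IRX3_S361A in place of 1359. That fit left out replicates 2 and 3 of IRX3_S361A and replicate 2 of IRX3_S389A, whose step was within 1% of 1. IRX3_S361A entered it with replicate 1 only, so these counts rest on a single IRX3_S361A library. They cannot show how far that group varies. In that fit Ebi3 was -0.21 for IRX3_S361A against IRX3_WT and Il12a was 0.0707 for IRX3_S389A against IRX3_S361A. With libraries scaled to equal totals, Il23a for IRX3_S361A against GFP was -0.000237, Ebi3 for IRX3_S361A against GFP was 0.12 (adjusted p = 0.0886), Ebi3 for IRX3_S389A against GFP was -0.0545, and Ebi3 for IRX3_S389A against IRX3_S361A was -0.17 (adjusted p = 0.0290). With a pseudocount of 10, Il23a for IRX3_S389A against IRX3_WT was -0.71 (adjusted p = 0.0445), and the adjusted p of the exact permutation test was 0.00351 for Il23a over Il12b and 0.00831 for Il12a over Il23a. With edgeR on all recovered reads that Il23a difference was -1.54 (adjusted p = 0.0388). The causes were not tested.

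Leaving out each library in turn kept 538 values and changed 14. Il23a for IRX3_S361A against GFP ran from -0.13 to 0.47, Ebi3 for IRX3_S389A against GFP from 0.0716 to 0.17, Il23a for IRX3_S389A against IRX3_WT from -1.64 to -1.18 and Il27 for IRX3_S389A against IRX3_WT from -0.24 to -0.15. Genes called for IRX3_S389A against IRX3_S361A ran from 904, without replicate 3 of IRX3_S361A, to 1415. The adjusted p of the exact permutation tests ran from 0.0254 to 0.433 for Il12a over Il12b, from 0.0449 to 0.357 for Il23a over Il12b, and from 0.0254 to 0.357 for Il12a over Il23a. Il23a rests on 4 to 19 reads a library.

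Libraries with the same replicate number did not deviate together: their correlations ran from -0.041 to 0.0297 and none of 18 was over 0.1. These correlations cannot show whether such libraries shared an animal, day or batch, which the labels do not say. A replicate block called 5241 genes for IRX3_WT against GFP, 3387 for IRX3_S361A against GFP, 4637 for IRX3_S389A against GFP, 2023 for IRX3_S361A against IRX3_WT, 1982 for IRX3_S389A against IRX3_WT and 1322 for IRX3_S389A against IRX3_S361A, and it changed no call of a family gene or ratio.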

Other observations

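The coding genes next to each member were also read. The nearest neighbour of Il23a, Stat2, 3290 bases away on chromosome 10, averaged 10289.8 ± 404 normalized counts in IRX3_S389A, 9090.4 ± 384 in IRX3_S361A, 9019 ± 386 in IRX3_WT and 7024 ± 257 in GFP libraries (SD, n = 3 each), and was higher than in GFP with every IRX3 construct. Pan2, on the other side of Il23a, had no difference past the test. Next to Il12a, the gene model 1110032F04Rik, 171039 bases away, averaged 54.0 ± 8.37 in IRX3_S389A, 38.8 ± 10.5 in IRX3_S361A, 77.2 ± 14.3 in IRX3_WT and 34.3 ± 6.00 in GFP libraries, and it was 1.14 higher on the log2 scale with IRX3_WT than with GFP (limma adjusted p = 8.87e-05). Ublcp1 next to Il12b and Zfp119b and Yju2 on either side of Ebi3 had no difference past the test in any of the 6 comparisons. Nupr1, 28308 bases from Il27, averaged 502 ± 17.9 in IRX3_S389A, 455 ± 33.3 in IRX3_S361A, 505 ± 38.6 in IRX3_WT and 362 ± 28.3 in GFP libraries.

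The pentamer ATTTA, the core of AU-rich elements that shorten the life of many cytokine transcripts, was counted in the 3′ untranslated region of 1 transcript of each member. Il27 held 5 copies in 285 bases, or 17.5 per kb, and 0.248% of 11308 genes were at least as dense. The densities were 12.2 per kb for Il12a, 9.13 for Il23a and 7.75 for Il12b, which had 6 copies each. Ebi3 held 1 copy in 245 bases, or 4.08 per kb, a density that 10.98% of genes reached. The median gene held 1 copy and 1.297 per kb.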
